A study of Mus musculus with 12 samples.

Results

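The inducible genes described here were 10 of the 37620 genes in a count table of bone endothelial cells (BECs), chosen by name: the AP-1 genes Fos, Fosb, Jun, Junb and Jund, the related gene Atf3, the other immediate early genes Egr1 and Ier2, and the inducible Hsp70 genes Hspa1a and Hspa1b. All 10 were present in the table and all 10 had enough counts to be tested in each comparison. The cells came from mice labelled c57/Bl6, an inbred strain (C57BL/6J in the methods of the study), of both sexes, aged 2 or 65 weeks, with no treatment or altered allele named in the labels, and each of the 4 groups of sex and age held 3 libraries. They were purified from the labelled tissue, tibia, by endomucin, a sialomucin of the surface of certain capillaries and veins, and the label describes them as freshly isolated. The methods of the study describe crushing of the bones and collagenase digestion before purification, from femurs as well as tibiae, and a choice of samples for sequencing by RNA quality.

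Immediate early genes are transcribed within minutes of a stimulus without new protein synthesis, because the factors that switch them on are already present in the cell. Fos and Jun proteins pair as AP-1, which binds DNA and sets the second wave of a response, whereas Hspa1a and Hspa1b encode the Hsp70 chaperone that refolds proteins after heat or other damage. In endothelium these genes are known to respond to growth factors, flow and inflammatory signals, and they are also known to be induced while a tissue is dissociated into single cells. Every library came from isolated cells, so the level that the cells had in undisturbed bone and the level gained during isolation cannot be told apart.

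Total counts per library ranged from 35012947 to 44569600 at 2 weeks and from 26044743 to 34088694 at 65 weeks. Levels are given as CPM, the count scaled to a common library total, and group levels as the mean ± SD of 3 libraries. Differences are log2 fold changes with their standard error (SE) from edgeR's quasi-likelihood F test, which scales libraries by the TMM method, so that a fold change can differ slightly from the ratio of 2 mean CPM values. A gene was taken to have changed when its p, adjusted by Benjamini-Hochberg over all genes tested, was under 0.05. The labels do not say whether libraries came from separate animals, so the p-values measure the spread between these libraries, which may in part be technical. The third male 65-week library stood apart from its group: without it 830 of all genes, in place of 6, passed between the sexes at 65 weeks, so results that rest on it are given with and without it.

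The first question was which inducible genes differed between 2 and 65 weeks. In females 7 of the 10 genes passed the test: Junb, Jund, Atf3, Ier2, Hspa1a and Hspa1b rose and Egr1 fell. In males 8 of the 10 passed: the same 6 genes and Fos rose, and Egr1 fell. These counts stand beside a wide background, since 59.7% of the 15120 genes tested in females passed, 30.2% upwards and 29.5% downwards, and 55.5% of the 14959 genes tested in males, 27.0% upwards and 28.5% downwards. Of the 10 genes 70.0% and 80.0% passed, and all of these but Egr1 rose. With so few genes, among them Hspa1a and Hspa1b, which may share reads, these shares lie near the background. Whether they exceed it was not tested. The median log2 difference of the 10 genes was 0.80 in females and 1.11 in males, against 0.01 over all genes tested in either sex. The share of all genes whose libraries did not overlap between ages was not counted. Separation of the ages, where given below, may thus be no more than the background.

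**Figure D1:**
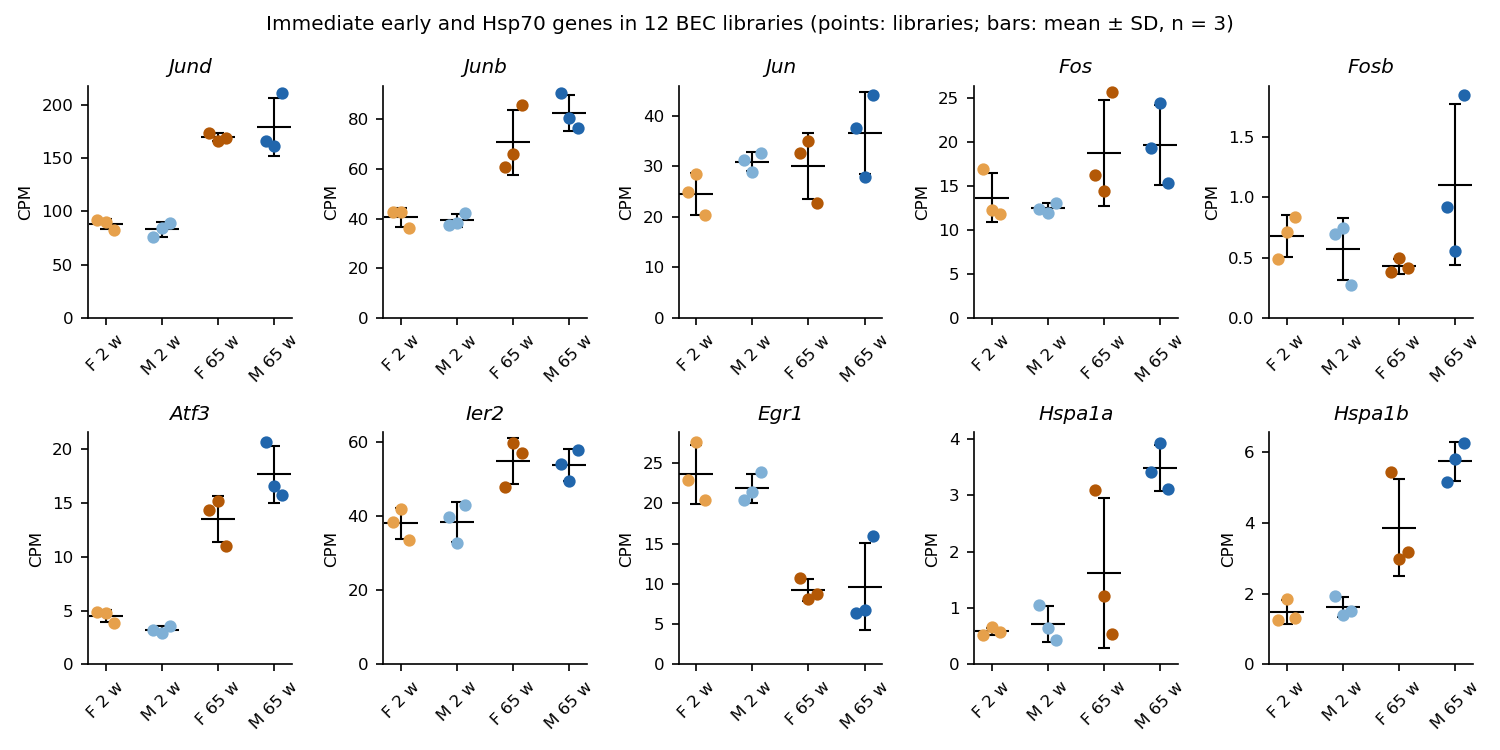
CPM of the 10 genes (vertical axes, each from 0) in female (F) and male (M) mice of 2 and 65 weeks (w), with 1 point per library and the mean ± SD of 3 libraries as black bars. The 65-week libraries lie above all 2-week libraries of the same sex for Jund, Junb, Atf3, Ier2 and Hspa1b and below them for Egr1, whereas Jun, Fosb and, in females, Fos and Hspa1a overlap between ages. How common such separation is over all genes was not counted.

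Markers of other cells moved with age as well. The summed level of 16 endothelial markers ranged from 3346 to 6044 CPM over the 2-week libraries and from 241.9 to 368.8 CPM over the 65-week libraries, and none of the 16 was at 0. The 12 neutrophil markers summed to 5438 to 7509 CPM at 2 weeks and 12210 to 26560 CPM at 65 weeks, and the 12 monocyte and macrophage markers to 4604 to 6183 CPM and 8143 to 11160 CPM. B cell markers (10 genes) went from 285.6 to 389.7 CPM to 460.1 to 1909 CPM, plasma cell markers (6 genes) from 104.7 to 155.0 CPM to 786.3 to 1429 CPM, and T and NK cell markers (9 genes) from 71.0 to 94.1 CPM to 129.2 to 228.2 CPM. Summed markers of megakaryocytes (6 genes), osteoblasts (9), chondrocytes (7) and mesenchymal and mural cells (8) were lower in every 65-week library than in every 2-week library. Those of erythroid cells (10) overlapped between ages, at 31720 to 58780 CPM at 2 weeks and 31810 to 48820 CPM at 65 weeks. The erythroid sum was thus above the endothelial sum in every library, and at 65 weeks so were the neutrophil and the monocyte and macrophage sums. Sums over different genes do not give cell numbers. At least 1 count was seen for every one of these markers in each group, except for 1 chondrocyte marker at 65 weeks. The part of this shift in the age differences below was not tested, and in bulk RNA fewer cells of a type and less RNA per cell cannot be told apart.

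Among the AP-1 genes, Jund, whose product is the Jun protein that most resting cells hold at a steady level, was the most abundant. In females it stood at 91.7, 89.6 and 82.4 CPM in the 2-week libraries and at 173.6, 165.7 and 168.9 CPM in the 65-week libraries. In males it stood at 75.5, 84.5 and 89.2 CPM and at 166.0, 160.8 and 210.6 CPM. The ages did not overlap in either sex, and Jund rose 2.12-fold in females (log2 1.08, SE 0.07, edgeR adjusted p = 1.17e-05) and 2.33-fold in males (log2 1.22, SE 0.12, edgeR adjusted p = 8.48e-05). Without the third male 65-week library, the highest, the male rise was log2 1.10 (SE 0.10, edgeR adjusted p = 6.7e-05).

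Junb, an AP-1 subunit that often restrains the activity of Jun, had the same direction. Its female libraries held 42.6, 42.9 and 36.2 CPM at 2 weeks and 60.9, 66.0 and 85.6 CPM at 65 weeks, and its male libraries 37.4, 38.1 and 42.2 CPM and 90.7, 80.5 and 76.4 CPM. Again no 65-week library fell within the 2-week range. Junb rose 1.92-fold in females (log2 0.94, SE 0.13, edgeR adjusted p = 0.000514) and 2.29-fold in males (log2 1.19, SE 0.12, edgeR adjusted p = 0.0001). The annotation places 173 of the 2381 exon bases of Junb on the opposite strand of exons of Prdx2, a peroxidase of red blood cells among others, which stood at group means of 1408 to 1586 CPM. Whether counting used strand is not given in the sources used here, so reads of both genes in those bases cannot be told apart.

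Jun, the strongest activator of its family, did not pass the test in either sex. It was at 24.5 ± 4.07 and 30.1 ± 6.48 CPM in females of 2 and 65 weeks (n = 3 each) and at 30.9 ± 1.84 and 36.5 ± 8.14 CPM in males. The age difference was log2 0.44 (SE 0.18, edgeR adjusted p = 0.0638) in females and 0.35 (SE 0.16, adjusted p = 0.088) in males. These intervals do not show that Jun stayed level, and the gap to Jund was not tested as such. With 1 library left out, the female difference ran from 0.25 (adjusted p = 0.279) without the third 2-week library to 0.60 (adjusted p = 0.00874) without the third 65-week library, which had the lowest Jun level of its group at 22.7 CPM. The male difference ran from 0.21 (adjusted p = 0.245) without the third 65-week library to 0.50 (adjusted p = 0.00655) without the second, at 27.9 CPM. With the replicate number as a block, the female difference was 0.42 (adjusted p = 0.0138).

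The genes lie on separate chromosomes for the most part. In GRCm39 with GENCODE M39 annotation, Jund is at chr8:71151599-71153265 on the plus strand, Junb at chr8:85701113-85705359 on the minus strand and Jun at chr4:94937271-94940459 on the minus strand. Fos is at chr12:85520658-85524047 on the plus strand, Fosb at chr7:19036621-19043976 on the minus strand and Atf3 at chr1:190902493-190950241 on the minus strand. All are protein coding. On the opposite strand, exons of the noncoding gene Junos cover 528 of the 3189 exon bases of Jun, and those of Gm11175 cover 877 of the 1667 of Jund, but these stood at group means of 1.38 to 2.44 and 0.303 to 0.554 CPM.

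Fos, the partner of Jun often read as the sign of a recent stimulus, passed in males and not in females, and the age difference was not shown to depend on sex (interaction, edgeR adjusted p = 0.841). In males it was at 12.4, 11.97 and 13.1 CPM at 2 weeks and at 19.3, 24.4 and 15.4 CPM at 65 weeks, a rise of 1.72-fold (log2 0.78, SE 0.19, edgeR adjusted p = 0.0101). In females it was at 16.9, 12.3 and 11.8 CPM and at 16.3, 14.4 and 25.6 CPM. The female ranges overlapped, and the difference was log2 0.59 (SE 0.23, edgeR adjusted p = 0.0592). It passed without the first female 2-week library (0.72, adjusted p = 0.0485) or without the second 65-week library (0.74, adjusted p = 0.033), and was 0.30 (adjusted p = 0.197) without the third 65-week library, the highest. The adjusted p was 0.203 without the third 2-week library, at log2 0.43.

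Fosb, a close relative of Fos with a long-lived splice form, was near the lower end of what these libraries measured, with 10 to 48 counts per library. Its level was 0.680 ± 0.175 and 0.429 ± 0.062 CPM in females of 2 and 65 weeks and 0.571 ± 0.257 and 1.11 ± 0.664 CPM in males (n = 3 each). The age difference was log2 -0.52 (SE 0.38, edgeR adjusted p = 0.27) in females and 1.03 (SE 0.55, adjusted p = 0.144) in males, so neither could be told from the spread. The male 65-week mean rested on 1 library at 1.84 CPM, the third, with the others at 0.915 and 0.556 CPM, and without it the male difference was 0.48 (adjusted p = 0.461).

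Atf3, a stress-inducible member of the ATF/CREB family that pairs with Jun proteins and often represses their targets, had the largest fold difference of the 10 genes in both sexes. In females it stood at 4.87, 4.80 and 3.87 CPM at 2 weeks and at 14.3, 15.2 and 11.1 CPM at 65 weeks. In males it stood at 3.16, 2.94 and 3.58 CPM and at 20.7, 16.6 and 15.7 CPM. The lowest 65-week library held more than the highest 2-week library by a wide margin in both sexes. Atf3 rose 3.30-fold in females (log2 1.72, SE 0.17, edgeR adjusted p = 7.61e-05) and 5.96-fold in males (log2 2.57, SE 0.18, edgeR adjusted p = 2.05e-05).

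**Figure D2:**
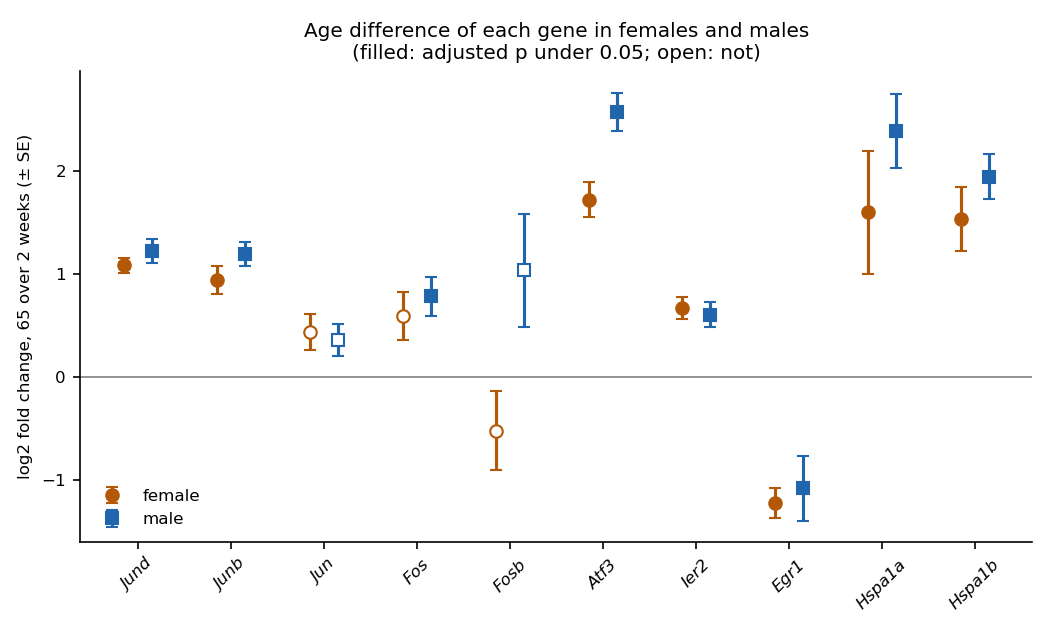
Log2 fold change of 65 over 2 weeks (vertical axis, ± SE) of each of the 10 genes, in females (circles) and males (squares), with 3 libraries per age, filled where the edgeR adjusted p was under 0.05. Atf3 and the Hsp70 genes lie highest, from 1.53 to 2.57, Egr1 alone lies below 0 in both sexes, and Jun, Fosb and female Fos are open.

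Sequence upstream of the start site is shown for the AP-1 genes with a motif that the cyclic AMP response factors are known to bind, Fos and Atf3. It is the 150 bases before the RefSeq start in GRCm38.p6, in the direction of transcription, with the half-site TGACGT (or its reverse complement ACGTCA) and, in Fos, the TATA box TATAAA in capitals. Fos lies at chr12:85473740-85473889 on the plus strand and Atf3 at chr1:191183334-191183483 on the minus strand.
Fos: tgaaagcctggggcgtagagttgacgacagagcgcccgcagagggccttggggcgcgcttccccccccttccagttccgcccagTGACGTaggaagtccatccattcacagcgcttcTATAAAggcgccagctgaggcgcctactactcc
Atf3: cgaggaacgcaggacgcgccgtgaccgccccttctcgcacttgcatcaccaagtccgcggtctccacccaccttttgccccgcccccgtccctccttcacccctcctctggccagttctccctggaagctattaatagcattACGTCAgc
The half-site ran from 66 to 61 bases before the start of Fos and from 8 to 3 bases before that of Atf3, and the TATA box of Fos from 33 to 28.

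Motifs were searched on both strands over the 250 bases before the start of all 32851 RefSeq promoters, of which 8 belonged to the genes described. Egr1 and Ier2 were not among these and were not searched. The half-site TGACGT was in 6.47% of all promoters and in 2 of the 8 genes, and TATAAA was in 12.4% and in 1. The full cyclic AMP response element TGACGTCA, which contains the half-site, was in 1.55% of all and in none of the 8. The AP-1 site TGANTCA was in 6.75% and in none of the 8. The serum response motif, the CArG box, was in 1.47% and in none of the 8. The site GCGNGGGCG, which Egr proteins bind, was in 4.7% and in Fosb, and the CCAAT box was in 33.8% and in Hspa1a, Hspa1b, Jun and Junb. A match says that these letters are in the window, and a missing one says nothing of the factor.

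Ier2, a small nuclear protein of the immediate early class with a part in cell movement, rose modestly in both sexes. Its female libraries held 38.3, 42.0 and 33.7 CPM at 2 weeks and 47.9, 59.8 and 57.0 CPM at 65 weeks, and its male libraries 39.6, 32.6 and 43.0 CPM and 54.0, 49.5 and 57.9 CPM. The ages did not overlap in either sex. The rise was 1.59-fold in females (log2 0.67, SE 0.11, edgeR adjusted p = 0.00118) and 1.52-fold in males (log2 0.60, SE 0.12, edgeR adjusted p = 0.00405).

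Egr1, a zinc finger factor that growth signals switch on through serum response factor, was the gene of the 10 that fell. It was at 22.9, 27.7 and 20.4 CPM in the 2-week females and at 10.7, 8.13 and 8.77 CPM in the 65-week females. Its level was 20.4, 21.4 and 23.9 CPM in the 2-week males and 6.33, 6.74 and 15.9 CPM in the 65-week males. The ages did not overlap, but the third 65-week male library lay well above its group. Egr1 fell by 1.22 on the log2 scale in females, to 0.428 of the 2-week level (SE 0.15, edgeR adjusted p = 0.000202), and by 1.08 in males, to 0.472 (SE 0.32, edgeR adjusted p = 0.0209).

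The male fall of Egr1 was sensitive to which library was left out. Without the third 65-week library it was -1.62 (edgeR adjusted p = 3.64e-05), and it missed the threshold without the first or second 65-week library (-0.87, adjusted p = 0.0764, and -0.90, adjusted p = 0.0511) or without replicate 2 or 3 of the 2-week libraries (-1.11, adjusted p = 0.0529, and -1.03, adjusted p = 0.0654). The third library also stood apart in its summed B cell markers, at 1909 CPM against 607.1 and 460.1 CPM in the others, and in its neutrophil markers, at 17990 CPM against 26560 and 26470 CPM. Their part in its Egr1 level was not tested.

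Egr1 was set beside its relatives Egr2 and Egr3, which were singled out after their values had been seen. Egr2 rose in both sexes, in females from 1.29 ± 0.22 to 4.78 ± 0.48 CPM (log2 2.02, SE 0.23, edgeR adjusted p = 0.000163), and in males from 1.13 ± 0.15 to 5.50 ± 2.93 CPM (log2 2.38, SE 0.37, edgeR adjusted p = 0.00114), n = 3 each. Egr3 rose in females (log2 1.55, SE 0.41, edgeR adjusted p = 0.0117), and its male difference of 0.83 (SE 0.41, adjusted p = 0.124) did not pass. In GRCm39 Egr1 is on the plus strand of chromosome 18, and Ier2 is at chr8:85387960-85389483 on the minus strand.

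Hspa1a and Hspa1b, neighbouring copies that encode nearly the same inducible Hsp70 protein, were low in all groups and higher at 65 weeks. In females Hspa1b was at 1.25, 1.86 and 1.31 CPM at 2 weeks and at 5.44, 2.99 and 3.17 CPM at 65 weeks, and in males at 1.93, 1.39 and 1.51 CPM and at 5.16, 5.82 and 6.26 CPM. The ages did not overlap in either sex, and Hspa1b rose 2.89-fold in females (log2 1.53, SE 0.31, edgeR adjusted p = 0.00333) and 3.85-fold in males (log2 1.94, SE 0.22, edgeR adjusted p = 0.000213).

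For Hspa1a the sexes looked less alike. In males it was at 1.055, 0.646 and 0.440 CPM at 2 weeks and at 3.40, 3.93 and 3.11 CPM at 65 weeks, a rise of 5.23-fold (log2 2.39, SE 0.36, edgeR adjusted p = 0.00102). In females it was at 0.517, 0.657 and 0.575 CPM and at 3.10, 1.20 and 0.546 CPM, so that the lowest 65-week library lay within the 2-week range and the highest well above it. The female difference just passed (log2 1.60, SE 0.60, edgeR adjusted p = 0.0473) and rested on the first 65-week library, without which it was 0.73 (adjusted p = 0.201). Over 15 alternative fits its adjusted p ranged from 0.00736 to 0.201 and passed in 4. The difference between the sexes was not beyond the spread (interaction log2 0.79, SE 0.74, edgeR adjusted p = 0.697).

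The sequence before the start sites shows how alike the pair is, and it holds the motif for heat shock factors, the heat shock element, taken here as GAANNTTC or TTCNNGAA and set in capitals. The 150 bases are from RefSeq in GRCm38.p6, Hspa1a at chr17:34972157-34972306 and Hspa1b at chr17:34959239-34959388, both on the minus strand, and those of Jun at chr4:95052223-95052372, also on the minus strand, are added because they hold the same motif.
Hspa1a: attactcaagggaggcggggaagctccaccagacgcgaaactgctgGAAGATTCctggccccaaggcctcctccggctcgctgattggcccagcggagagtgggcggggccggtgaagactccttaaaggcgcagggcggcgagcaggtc
Hspa1b: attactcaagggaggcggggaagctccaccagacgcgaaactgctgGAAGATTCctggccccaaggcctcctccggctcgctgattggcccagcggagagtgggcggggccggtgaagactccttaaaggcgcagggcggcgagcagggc
Jun: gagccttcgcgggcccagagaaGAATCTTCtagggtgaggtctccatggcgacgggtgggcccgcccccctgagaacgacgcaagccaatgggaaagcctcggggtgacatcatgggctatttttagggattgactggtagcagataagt
The element lay from 104 to 97 bases before the start of both Hsp70 genes and from 128 to 121 before that of Jun, and it was in 12.8% of all promoters searched. Over 250 bases the pair was 98.8% identical, with 3 differences, C207T, T204C and T2G, each written as the Hspa1a base, its distance before the start and the Hspa1b base, and of these T2G is within the bases printed.

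The likeness extends into the transcripts, which bears on how far reads can be assigned to 1 copy. The coding sequences were 99.43% identical in an alignment, with 8 mismatches and 3 gap bases. Of all stretches of 100 nt, the length of 1 read, 47.1% of those in the Hspa1a transcript and 49.9% of those in the Hspa1b transcript occurred in the other copy as well. How the authors' counting treated such reads is not given in the sources used here, so the split between the copies is uncertain. In GRCm39 Hspa1a is at chr17:35188166-35191132 and Hspa1b at chr17:35175412-35178214.

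Taken as 1 feature, a choice made after the data were seen, the pair stood in females at 2.05 ± 0.40 CPM at the younger age and 5.48 ± 2.66 CPM at the older, and in males at 2.32 ± 0.57 and 9.22 ± 0.60 CPM (n = 3 each). The sum rose in both sexes, by log2 1.55 (SE 0.35, edgeR adjusted p = 0.00542) in females and 2.10 (SE 0.22, edgeR adjusted p = 0.000143) in males. Hspa1a made up 22.5% to 35.3% of the counts of the pair in the 2-week libraries and 14.7% to 40.3% in the 65-week libraries. The lowest share, 14.7%, was in the third female 65-week library (95% Wilson interval 9.24% to 22.5%, 16 of 109 counts) and the highest, 40.3%, in the second male 65-week library (34.6% to 46.3%, 106 of 263 counts). Such intervals cover counting error only.

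**Figure D3:**
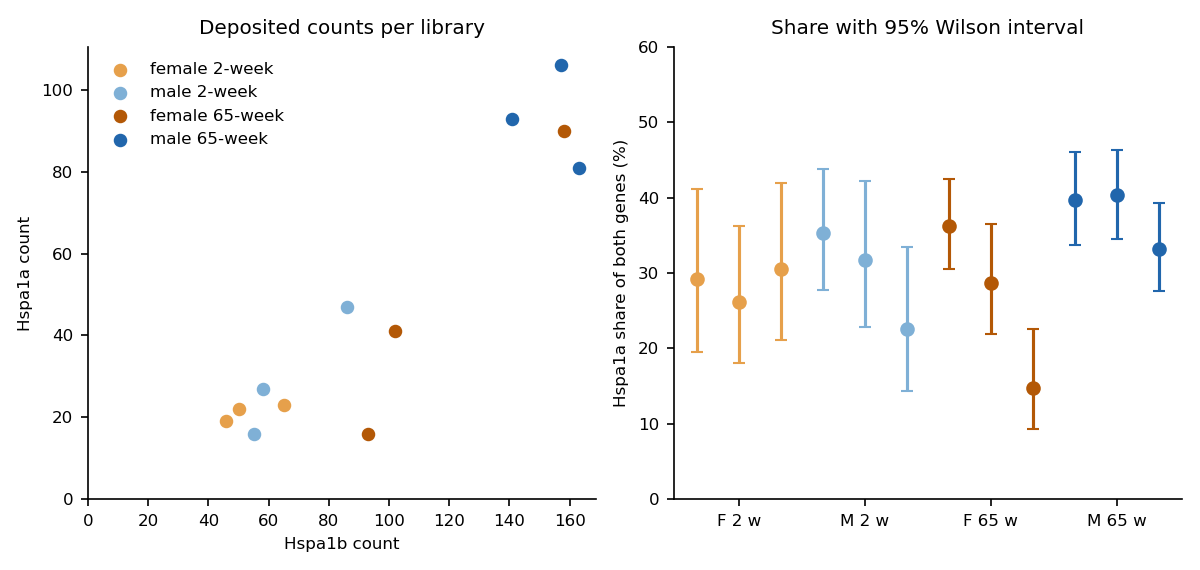
Left, counts of Hspa1a (vertical) and Hspa1b (horizontal) in each of the 12 libraries, coloured by group. Right, the Hspa1a share of the counts of both genes in percent, with its 95% Wilson interval, for each library in the order of replicates within a group (F, female; M, male; w, weeks). The 3 male and 1 of the female 65-week libraries stand apart at 234 counts or more for the pair, and the third female 65-week library has the lowest share.

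To compare levels between genes, CPM were divided by exon length in kilobases (CPM per kb). By this level Jund was highest in all 4 groups, at 52.7 ± 2.94 and 49.8 ± 4.17 CPM per kb in 2-week females and males and at 101.6 ± 2.38 and 107.4 ± 16.4 CPM per kb at 65 weeks. Ier2 and Junb came next, then Jun and Fos, and Fosb was lowest, at a mean of 0.177 CPM per kb or less in every group. Ier2 and Junb did not overlap at 2 weeks, but at 65 weeks their libraries did, in both sexes, and with the length of the canonical transcript in place of all exons, a choice made after the data were seen, Junb ranked above Ier2 there. Jun and Fos overlapped in 2-week females and in 65-week mice of both sexes. So did Fos and Egr1 at 2 weeks, and, at 65 weeks, Fos and Atf3 and also Egr1 and Hspa1b, in both sexes, so their ranges do not settle the order. Library by library, Jun was always above Fos in 2-week females, Fos above Egr1 in 2-week males and Egr1 above Hspa1b in 65-week females. In the other groups where Jun and Fos, Fos and Egr1, Fos and Atf3 or Egr1 and Hspa1b overlapped, libraries differed in the order. These orders were not tested. Hspa1b, Hspa1a and Fosb, in falling order, did not overlap with each other in any group.

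Egr1 and Atf3 changed places between the ages. At 2 weeks Egr1 ranked sixth, at 5.26 ± 0.82 CPM per kb in females and 4.87 ± 0.40 in males, and Atf3 ranked seventh, at 1.85 ± 0.23 and 1.32 ± 0.13. At 65 weeks Atf3 stood at 5.54 ± 0.89 CPM per kb in females and 7.24 ± 1.08 in males, and Egr1 at 2.05 ± 0.30 and 2.15 ± 1.21. The lowest library of the higher gene lay above the highest library of the lower gene in each of the 4 groups. The highest 65-week male library of Egr1, at 3.54 CPM per kb, was still below the lowest of Atf3, at 6.45.

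**Figure D4:**
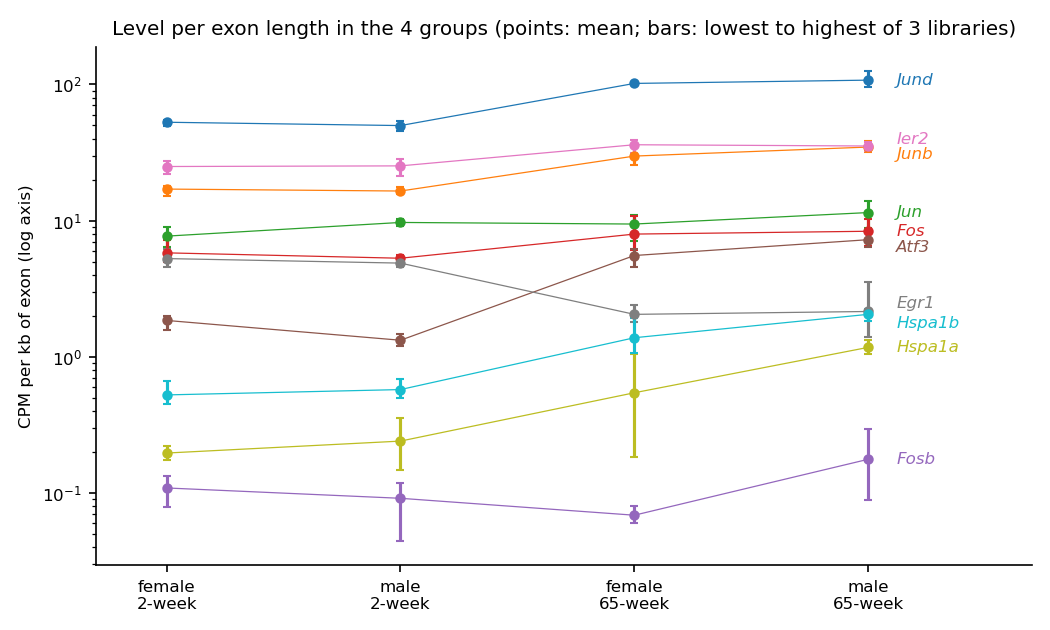
Mean level in CPM per kb of exon (vertical log axis) of the 10 genes in the 4 groups, with bars from the lowest to the highest of 3 libraries. The lines of Egr1 and Atf3 cross between 2 and 65 weeks, Jund stays at the top and Fosb at the bottom.

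The make-up of the AP-1 genes was described as each gene's share of the summed CPM per kb of Fos, Fosb, Jun, Junb, Jund and Atf3. Jund held 61.9% ± 1.42 and 60.2% ± 1.62 of this sum in 2-week females and males and 65.9% ± 2.40 and 63.2% ± 4.31 at 65 weeks. Junb held 19.2% to 20.6% on average in all groups. The share of Jun was 8.99% ± 1.01 and 11.7% ± 0.82 at 2 weeks and 6.14% ± 1.49 and 6.71% ± 0.98 at 65 weeks, with no overlap between ages in either sex. Atf3 went from 2.17% ± 0.11 to 3.60% ± 0.68 in females and from 1.60% ± 0.11 to 4.31% ± 0.81 in males. These shares are of transcripts and were not tested.

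Next, the sexes were compared at each age. None of the 10 genes passed at 2 weeks, where 0.0332% of 15081 genes passed, nor at 65 weeks, where 0.042% of 14287 genes passed. DESeq2 called none of the 10 either, at either age, where it called 3.38% and 2.23% of all genes. At an unadjusted p under 0.05 edgeR gave 2 of the 10 at 2 weeks, Jun and Atf3, where 17.8% of all genes lay under it, and 1 at 65 weeks, Fosb, where 10.4% did. Missing the threshold does not show that levels were the same.

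Jun and Atf3 had sexes that did not overlap at 2 weeks. Jun was higher in males by log2 0.32 (SE 0.11, edgeR adjusted p = 0.239), and Atf3 lower in males by log2 -0.50 (SE 0.14, edgeR adjusted p = 0.213). At 65 weeks it was Atf3, Fosb and Hspa1a whose libraries did not overlap, all with the male libraries higher. For Atf3 the highest female library was at 15.2 CPM and the lowest male library at 15.7 CPM. These were 0.499 and 0.556 CPM for Fosb and 3.10 and 3.11 CPM for Hspa1a. The share of all genes whose sexes did not overlap was not counted at either age, so such separation may be no more than the background. The differences at 65 weeks were 0.38 (SE 0.19, adjusted p = 0.565) for Atf3, 1.32 (SE 0.56, adjusted p = 0.465) for Fosb and 1.10 (SE 0.55, adjusted p = 0.571) for Hspa1a by edgeR. Without the third male 65-week library that of Fosb was 0.79 (adjusted p = 0.521). With 1 library left out, that of Hspa1a ranged from 0.69 (adjusted p = 0.806) without the third female 65-week library to 1.97 (adjusted p = 0.295) without the first.

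Whether the age difference depended on sex was tested as an interaction on all 12 libraries, which share their samples with the comparisons above. None of the 10 genes passed, where 0.00635% of 15747 genes passed. At an unadjusted p under 0.05 there were 2, Atf3 and Fosb, where 11.9% of all genes lay under it. For Atf3, males were below females in every 2-week library and above them in every 65-week library, and the interaction was log2 0.86 (SE 0.25, edgeR unadjusted p = 0.00546, adjusted p = 0.218). It passed without the third male 65-week library (0.98, adjusted p = 0.0476), and over 21 alternatives the adjusted p ranged from 0.0476 to 0.474. For Fosb the interaction was 1.55 (SE 0.70, edgeR adjusted p = 0.409), on the few counts given above, and 1.05 (adjusted p = 0.356) without that library.

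The same tests were read for other genes of these pathways. Over all genes tested, 59.7% passed in females (30.2% upwards) and 55.5% in males (27.0% upwards). Of 9 other AP-1 and dimer partners tested, 5 (55.6%) rose and none fell in females, and 6 (66.7%) rose and none fell in males. Their median difference was log2 0.68 in females and 0.57 in males. Mafk, a small Maf protein that pairs with other leucine zipper factors, rose in females from 59.0 ± 8.70 to 99.7 ± 4.47 CPM (log2 0.89, SE 0.12, edgeR adjusted p = 0.000457), and in males from 46.1 ± 6.72 to 98.7 ± 14.8 CPM (log2 1.22, SE 0.16, edgeR adjusted p = 0.000495). Batf, an AP-1 factor of lymphoid and myeloid cells, rose in females from 5.93 ± 0.57 to 14.1 ± 1.33 CPM (log2 1.39, SE 0.14), and in males from 5.83 ± 0.22 to 14.97 ± 7.17 CPM (log2 1.46, SE 0.30). Without the first female 2-week library 3 of the 9 genes passed in females. Calls over all genes then fell too, from 9030 of 15120 to 7434 of 15450.

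Of 36 other immediate early genes, 24 rose and 6 fell in females and 21 rose and 7 fell in males, with medians of log2 0.82 and 0.70. Together 83.3% of the 36 passed in females and 77.8% in males, against 59.7% and 55.5% of all genes. In both sexes 21 of the 36 rose and 5 fell, and the same was not counted over all genes. Nr4a3, an orphan nuclear receptor of the immediate early class, rose in females from 0.514 ± 0.166 to 3.03 ± 1.11 CPM (log2 2.68, SE 0.40, edgeR adjusted p = 0.000668), and in males from 0.523 ± 0.099 to 2.704 ± 0.27 CPM (log2 2.47, SE 0.29, edgeR adjusted p = 0.000258). Nfkbiz, a nuclear IkB protein of inflammatory signalling, rose by log2 2.66 (SE 0.19) in females and 2.52 (SE 0.23) in males. Ccn2 and Ccn1, secreted matrix proteins, fell, Ccn2 in females from 152.6 ± 37.3 to 2.04 ± 0.86 CPM, and in males from 189.8 ± 16.97 to 7.57 ± 1.37 CPM, and Ccn1 by log2 -2.58 (SE 0.31) and -3.50 (SE 0.32). Both are known to be made by mesenchymal cells too, whose summed markers were 4944 to 7915 CPM at 2 weeks and 903.4 to 1521 CPM at 65 weeks, and the part of these cells was not tested.

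Of 29 other chaperones and heat shock targets tested, 14 rose and 6 fell in females and 14 rose and 5 fell in males, with medians of log2 0.31 and 0.26. Together 69.0% of the 29 passed in females and 65.5% in males, against 59.7% and 55.5% of all genes. Hsph1, the Hsp110 partner of Hsp70, rose in females from 42.9 ± 2.64 to 102.6 ± 35.5 CPM (log2 1.39, SE 0.22, edgeR adjusted p = 0.000859), and in males from 35.2 ± 4.44 to 82.0 ± 27.0 CPM (log2 1.33, SE 0.23, edgeR adjusted p = 0.00208). Its relative Hspa4l rose by log2 1.10 (SE 0.14) and 1.08 (SE 0.17). Serpinh1, the collagen chaperone Hsp47, fell in females from 594.9 ± 156.9 to 30.5 ± 3.25 CPM, and in males from 738.4 ± 95.6 to 26.2 ± 4.27 CPM. Osteoblast markers, which include collagen genes, summed to 5647 to 8459 CPM at 2 weeks and to 147.6 to 236.5 CPM at 65 weeks, and their part was not tested. Hspb8, a small heat shock protein, fell by log2 -3.59 (SE 0.55) and -5.15 (SE 0.58). In males 10 of the 29 passed without the first 2-week library and 12 without the third. In these fits calls over all genes fell too, from 8298 of 14959 to 6450 of 15099 and 6590 of 15110.

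Of 17 upstream regulators, 4 rose and 5 fell in females and 5 rose and 4 fell in males, with medians of log2 -0.02 and -0.13. Together 52.9% of the 17 passed in each sex, below the 59.7% and 55.5% of all genes in females and males. Mrtfa, a coactivator of serum response factor, rose by log2 0.68 (SE 0.09) in females and 1.07 (SE 0.10) in males, and Elk4, a ternary complex factor, by 0.76 (SE 0.10) and 0.69 (SE 0.11). Elk3, an Ets factor known for endothelial expression, fell in females from 199.4 ± 47.3 to 42.5 ± 6.36 CPM, and in males from 237.1 ± 31.2 to 34.0 ± 11.7 CPM, beside the fall of the endothelial markers. Mapk8, the kinase JNK1 that phosphorylates Jun, fell by log2 -0.55 (SE 0.09) and -0.85 (SE 0.14). In males 5 of the 17 passed without the first 2-week library and 4 without the third. Calls over all genes fell in these fits as well, from 8298 to 6450 and 6590.

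Of 20 genes of the endoplasmic reticulum stress response, 13 rose and 2 fell in females and 4 rose and 5 fell in males, and 12 passed in 1 sex only. None passed the interaction by edgeR, so a difference between the sexes was not shown. By DESeq2 3 of the 20 passed the interaction, and without the third male 65-week library 7 did by edgeR. Creld2 rose in females from 28.5 ± 1.22 to 99.0 ± 49.1 CPM (log2 1.93, SE 0.30), and in males from 28.5 ± 2.12 to 47.8 ± 3.91 CPM (log2 0.86, SE 0.10). Chac1, which degrades glutathione, rose by log2 1.61 (SE 0.31) and 1.31 (SE 0.30). Trib3, a pseudokinase induced by Atf4 and Ddit3, fell by log2 -1.85 (SE 0.55) and -2.77 (SE 0.33), and Pdia6, a disulfide isomerase, by -0.25 (SE 0.09) and -0.78 (SE 0.12). Plasma cells are known for a high level of such genes, and their summed markers were higher at 65 weeks, as given above, with their part not tested.

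**Figure D5:**
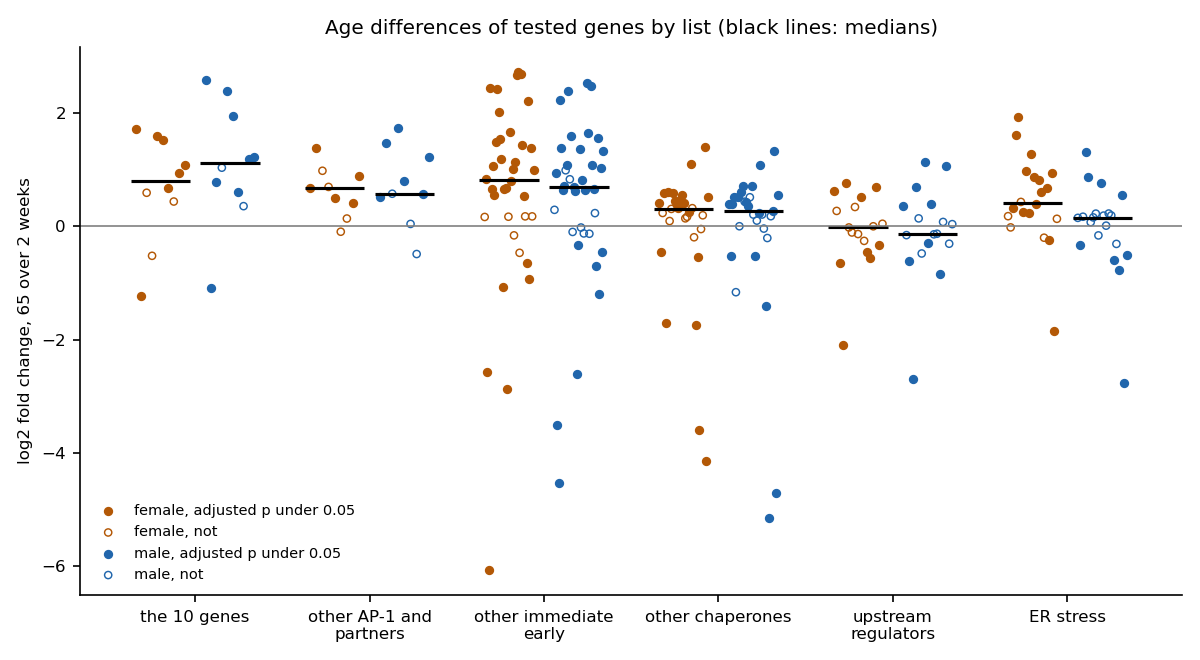
Log2 fold change of 65 over 2 weeks (vertical axis) of each tested gene in 6 lists, females and males side by side, filled where the edgeR adjusted p was under 0.05, with medians as black lines. The median lies above 0 in both sexes for all lists but the upstream regulators, and the widest spread, down to -6.07 for Ccn2, is among the other immediate early genes.

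Across the lists, none of the listed genes passed between the sexes or in the interaction by edgeR. Other fits called some of them. Between the sexes at 2 weeks DESeq2 called 2 other immediate early genes, 1 chaperone, 1 upstream regulator and 1 gene of the endoplasmic reticulum stress response, beside 3.38% of all genes. At 65 weeks it called 7, 1, 0 and 4 of these lists, beside 2.23%, and in the interaction 3, 1, 0 and 3, beside 2.19%. Of those called at 65 weeks, 6 of the 7 immediate early genes and all 4 of the last list were lower in males. By edgeR at 65 weeks, 1 model of all 12 libraries called 3 other immediate early genes, beside 254 of 15747 genes. It also called 2 genes of the endoplasmic reticulum stress response, both lower in males. Without a filter edgeR called 3 other immediate early genes, beside 105 of 20350 genes. In each of these fits 2 of the 3 were lower in males. Without the third male 65-week library, edgeR called 14 other immediate early genes, 1 chaperone and 5 genes of the endoplasmic reticulum stress response between the sexes at 65 weeks, beside 5.65% of all genes. Of these, 12 of the 14 and all 5 were lower in males, and the chaperone was higher. In the interaction edgeR then called 8, 1 and 7, beside 4.66%, and it was below 0 for 6 of the 8, the 1 and all 7. Of the 10 genes these fits called Atf3 alone, in the interaction without that library.

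Finally, the genes closest in pattern were sought by the root mean square distance between log2(CPM + 0.5) profiles over the 12 libraries, each centred on its mean, among 12530 protein-coding genes. The closest to Fos was Dusp1, a phosphatase of MAP kinases and itself an immediate early gene, at 0.139, with Rlf (0.179) and Fhip1b (0.181) next, against a median of 0.489 over all genes. The smallest of so many distances must lie below their median. Of the genes described here, Junb (0.279), Ier2 (0.291) and Jund (0.387) lay below that median for Fos and Jun (0.48) close to it. Hspa1b (0.585), Hspa1a (0.758), Atf3 (0.767) and Egr1 (1.02) lay above it. Mean Dusp1 levels at 2 weeks were 52.4 (females) and 47.6 (males) CPM, and at 65 weeks 69.7 and 71.3 CPM. The closest to Egr1 were Fam167a (0.134), Ets1, an Ets factor (0.162), and Gria3 (0.164), against a median of 0.725. Hspa1a was closest to Hspa1b (0.335), with which it may share reads, and then to Creg2 (0.373) and Kcnj9 (0.374), against a median of 0.914. All 12 points are shared between the profiles, with their age groups.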

How the data were processed

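The series holds RNA-seq of 12 BEC libraries, in read pairs of 100 nt. Deposited values are unnormalised counts of reads per gene, made by the authors. The methods of the study name GRCm39, STAR and featureCounts, whereas the submitters' processing notes name mm9, TopHat2 and HTSeq, and this was not resolved. Of the 37620 Ensembl IDs, 6568 were not in GENCODE M39, from which names, exon lengths and GRCm39 coordinates were taken. The kit was for total RNA and the molecule label names polyadenylated RNA.

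The 10 genes and all lists were chosen with earlier results of these data known. The quasi-likelihood F test of edgeR 4.0.16 (run in R 4.3.3) was applied to genes kept by filterByExpr at 10 counts, with TMM factors. P-values were adjusted by the method of Benjamini and Hochberg over all genes, and 0.05 was the limit. Ages were compared within the 6 libraries of a sex, sexes within the 6 of an age, and the interaction on all 12. SEs were derived from the F statistic. Recovery was checked in simulated counts, with 50 genes altered by each fold change, all others left unchanged and the same dispersion for every gene. In the female age comparison, over 15100 genes, a 1.5-fold change was found in 12 of the 50, a 2-fold change in 39 and a 3-fold change in 48. In the interaction, over 15413 genes, these numbers were 1, 15 and 39, so most changes of 1.5-fold were missed in both simulations. In the measured age comparisons most genes passed, which makes the adjusted limit less strict than in the simulation. The simulated numbers therefore do not give the recovery of the age tests. All 10 genes are named. Of each other list, up to 2 genes that rose and 2 that fell most in both sexes, at a mean of at least 1 CPM over the libraries, are named, and 3 neighbours of each of Fos, Egr1 and Hspa1a. Atf7 and Hspa14 had no match. Alternatives used DESeq2 1.42.0, other scalings, filters and models, a replicate block, thinned counts and fits without 1 library each. Promoter sequences were from RefSeq (GRCm38.p6), and Hsp70 coding sequences were aligned with Biopython 1.88.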

Additional observations from a re-analysis of the deposited data

How the results depend on the processing

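Of 843 fits of 1 of the 10 genes under an alternative, none turned the direction of a difference that passed, and 27 changed the sign of a difference that passed in neither fit, all between sexes or in the interaction. The number of the 10 genes that passed was 6 to 8 in females and 7 to 8 in males over all alternatives, 6 to 8 and 7 to 8 when 1 library was left out, and 0 between the sexes in every fit. In the interaction it was 0 to 1 when 1 library was left out, the 1 being Atf3 without the third male 65-week library. Among all genes, leaving out that library took the calls from 6 to 830 between the sexes at 65 weeks and from 1 to 750 in the interaction, and the cause was not tested.

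With a replicate block, 7 of the 10 genes passed in females and 8 in males, Hspa1a was lost in females (log2 1.30, adjusted p = 0.113) and Jun gained. Correlations of same-numbered libraries ranged from -0.355 to 0.14. Libraries of different number were not correlated for reference, so whether same-numbered libraries share more than a number was not tested. Female Hspa1a also missed the threshold under RLE scaling (adjusted p = 0.0506), upper-quartile scaling (0.0536), library totals alone (0.0633), no filter (0.0544) and thinned counts (0.052). With library totals alone the median of all genes was -0.13 in females and -0.11 in males, and calls split into 3668 up and 5451 down, against 4568 and 4462, in females and 3304 and 4865, against 4041 and 4257, in males.

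Counts of all genes that passed moved by over 1.5 times under DESeq2 (432 against 5 between the sexes at 2 weeks, 348 against 6 at 65 weeks, 347 against 1 in the interaction), in 1 model of all libraries (8 at 2 weeks, 254 at 65 weeks), without a filter (105 at 65 weeks, 7 in the interaction), without blood cell marker genes (15 at 65 weeks), with library totals alone (10 at 65 weeks) and with the replicate block (0 in the interaction). Low counts limit Fosb and Hspa1a most. Ranks by level differed in 14 of 40 cases without dividing by length and in 4 with the canonical length.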
